A study of Mus musculus with 4 samples.

Results

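The p53 pathway was followed through 7 genes in thymocytes of hnRNP L knockout (KO) and wild-type (WT) mice. These are Cdkn1a, Trp53, Mdm2, Mdm4, Ccng1, Phlda3 and Sesn2, found by symbol among the 22730 gene symbols of the expression tables and in the gene column of the junction tables. They had 9 of the 28283 transcript rows. Of the 1921627 exon-exon junctions listed, 264 were theirs, and 50 of their 51 known and 23 of their 213 putative junctions had a read.

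RNA came from total thymocytes, the developing T cells of the thymus, of 2 KO and 2 WT mice, with 1 library per mouse. The KO targets hnRNP L, an RNA-binding protein that regulates splicing. The labels give both groups the same mixed background, made up of C57BL/6, an LckCre transgene, a ROSA26 tdTomato and EGFP reporter, and CD45.1. LckCre is driven by the Lck promoter, which acts in T-lineage cells. Which mice carried Cre, the allele that was deleted, the ages of the mice and the slide shared by each pair of samples are not stated in the labels.

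p53, the product of Trp53, is a transcription factor that is kept low by constant destruction and accumulates after DNA damage and other stress. Mdm2 is the ubiquitin ligase that targets p53 for destruction and is itself a p53 target, while its relative Mdm4 binds p53 and blocks its activity. Cdkn1a encodes p21, which inhibits cyclin-dependent kinases and halts the cell cycle. In the thymus, p53 is known for removing cells with broken DNA and for holding back those that fail to rearrange a T cell receptor gene.

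Mapped reads numbered 69061265 and 75485061 in KO replicates 1 and 2, and 99782558 and 122619310 in WT replicates 1 and 2. The targeted gene, Hnrnpl, was at 467 and 208 CPM (read counts scaled to library size, here by TMM) in the KO libraries and at 854 and 813 CPM in the WT libraries. KO replicate 1 thus held 56.0% of the WT mean and KO replicate 2 held 25.0%. Reads of Ddx3y, a Y-linked gene, numbered 4116 and 1 in the KO libraries and 17 and 1 in the WT libraries, so KO replicate 1 stands apart as the library of a male. Summed thymocyte markers, all 12 of which were detected, stood at 19671 and 15625 CPM in KO and at 19108 and 18774 CPM in WT. Rag1 was the largest part of each sum, with 7685 and 5529 CPM in KO and 7811 and 7402 CPM in WT. In KO replicate 2, 3 of the 12 markers were above the WT mean. Small RNA genes and their hosts took 2.14% and 1.13% of gene reads in KO, and 8.22% and 1.44% in WT, where replicate 1 is the high one. In RNA from whole cell populations, fewer cells of a type and less RNA per cell cannot be told apart.

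Cdkn1a has a distal and a proximal start, and the 100 bases before each are shown, with a stretch of 100 bases from further upstream of the Ccng1 start, since the p53 response element is a hallmark of target promoters. The element is a pair of half-sites of 10 bases each, and capitals mark stretches of 20 bases that match the p53 half-site consensus in tandem with 1 mismatch. The sequences are RefSeq's on GRCm38.p6, at chr17:29090879-29090978 and chr17:29093669-29093768 on the plus strand and chr11:40755417-40755516 on the minus strand.
Cdkn1a distal start: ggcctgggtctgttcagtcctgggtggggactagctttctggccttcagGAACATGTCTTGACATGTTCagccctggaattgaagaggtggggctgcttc
Cdkn1a proximal start: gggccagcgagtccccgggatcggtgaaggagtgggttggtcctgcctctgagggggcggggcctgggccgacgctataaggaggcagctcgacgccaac
Ccng1 promoter: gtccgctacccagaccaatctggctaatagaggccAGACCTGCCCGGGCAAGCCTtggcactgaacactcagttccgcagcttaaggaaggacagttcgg

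The tandem match lay at -51 to -32 before the distal Cdkn1a start and at -195 to -176 before the Ccng1 start. A match was a pair of adjoining half-sites with a spacer of at most 1 base and at most 1 mismatch over both, read on both strands, an allowance set after the letters were seen. Such a pair stood in 58 of the 32851 RefSeq promoters of the same length, 0.177%. Each window ran from 250 bases before the start to 50 after it. A single half-site without mismatch occurred in 8.36% of promoters, among them those of Trp53 at -75 and Mdm2 at -186. All 7 genes had an entry, with 9 promoters in all. No half-site match was found in the windows of Mdm4, Phlda3, Sesn2 and the proximal Cdkn1a start. The distal Cdkn1a start lies upstream of the proximal one on the same strand. Its tandem match is thus also upstream of the proximal start, outside the window searched there. Sequence beyond the windows was not searched.

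Cdkn1a stood higher in both KO libraries than in both WT libraries, with most of the difference in KO replicate 2. Its row on mm9 chromosome 17, 29230717 to 29237667, held 195 and 471 reads in KO and 220 and 276 reads in the deeper WT libraries. Scaled by TMM these are 7.06 and 15.2 CPM in KO (11.1 ± 5.76, SD, n = 2) and 5.65 and 5.41 CPM in WT (5.53 ± 0.170, SD, n = 2). KO replicate 1 was at 1.28 times and KO replicate 2 at 2.75 times the WT mean, while the WT mice differed from each other by a factor of only 1.04. The log2 fold change of 1.01 (SE 0.35) did not pass edgeR's quasi-likelihood test over 13733 genes (adjusted p = 0.475, unadjusted p = 0.024). Without KO replicate 1, which leaves 3 libraries from females, it was 1.45 (SE 0.19) and passed (edgeR adjusted p = 0.019), in a fit where the lone KO library is assumed to vary like the WT libraries and which called 2.96% of all genes. With KO replicate 2 left out, the library that holds less of the Hnrnpl mRNA, it was 0.35 (SE 0.22, edgeR adjusted p = 0.716). KO replicate 1 is both the male library and, of the KO libraries, the one with more Hnrnpl left. The parts of sex and of the remaining Hnrnpl in this difference thus cannot be told apart, and were not tested.

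The junction reads of Cdkn1a, counted apart from the gene reads, came to 12 and 21 in KO and 8 and 19 in WT. These are 3.63 and 5.97 junction CPM (scaled to all junction reads of the library) in KO and 1.68 and 3.09 in WT. The groups do not overlap in this sum, which comes from the same libraries. How many of all genes separate by junction sums was not computed. The ratio of the sums on the log2 scale was 1.01, from few reads. The junction from exon 2 to exon 3 overlapped between groups, with 0.606 and 1.14 junction CPM in KO and 0.840 and 0.651 in WT. All reads into exon 2 came from the proximal first exon, with 10 and 17 in KO and 4 and 15 in WT. The junction from the distal first exon had 0 reads in every library. The tandem match near that start is also upstream of the proximal start, and which start it serves was not tested. Over both mice, 0 of 27 reads in KO allow a distal share of up to 11.1%, and 0 of 19 in WT a share of up to 15.8%, for counting error alone. The deposited row of the distal transcript, with 186 and 461 reads in KO and 211 and 263 in WT, shares nearly all its exons with the proximal one.

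**Figure D1:**
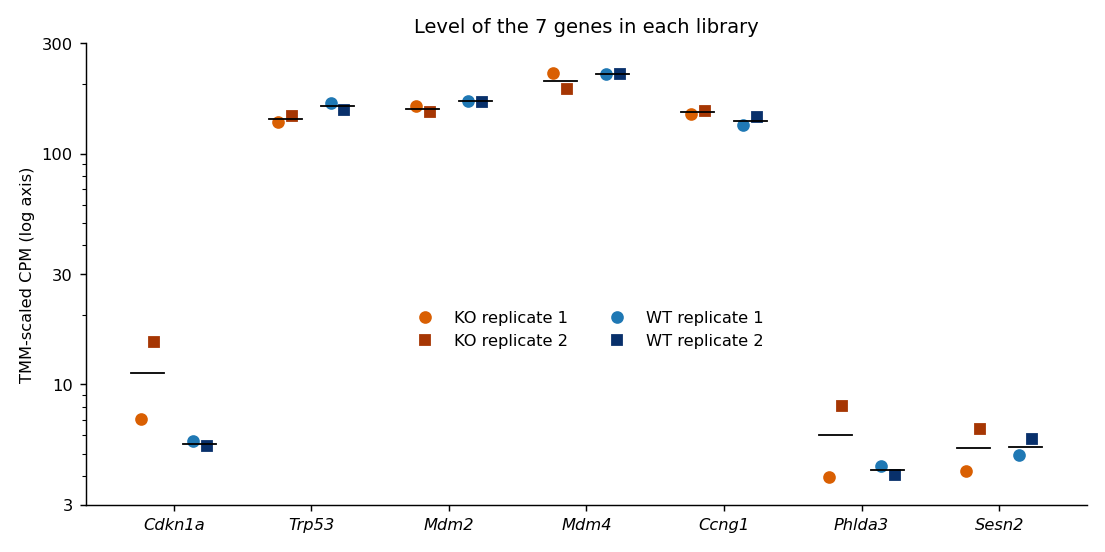
Each point is the TMM-scaled level in CPM of 1 gene in 1 library, on a log axis, with KO left of WT and bars at the group means (n = 2 each). Cdkn1a and Phlda3 are highest in KO replicate 2, at 15.2 and 8.08 CPM, while Trp53, Mdm2, Mdm4 and Ccng1 lie between 133 and 223 CPM in every library.

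None of the 7 genes passed the edgeR test between KO and WT, against a background of 0.00728% of all genes tested. Cdkn1a was the only one with an unadjusted p under 0.05, a mark that 9.90% of all genes reached. Both KO libraries lay above both WT libraries for 2 of the 7, Cdkn1a and Ccng1, where the share over all genes is 23.3%. Both lay below for 2, Trp53 and Mdm2, where it is 21.4%. In the other 3, the groups overlapped. DESeq2, with 0.522% of all genes called, and limma-voom, with 0 of all genes, also called 0 of the 7. Hnrnpl, the targeted gene, did not pass the edgeR test either (log2 fold change -1.30, SE 0.42, edgeR adjusted p = 0.486). A gene left uncalled is therefore not shown to be unchanged.

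The regulators of the pathway were abundant and differed little between groups. Trp53 had 137 and 145 CPM in KO (141 ± 5.76, SD, n = 2) and 166 and 154 CPM in WT (160 ± 8.52, SD, n = 2). Both KO mice were below both WT mice, and the difference did not pass the test (log2 fold change -0.18, SE 0.12, edgeR adjusted p = 0.589). Mdm2, the ligase and target, had 161 and 151 CPM in KO and 169 and 168 CPM in WT. Its KO libraries were both lower, with a log2 fold change of -0.11 (SE 0.11, edgeR adjusted p = 0.721). Mdm4, the non-ligase partner, had 223 and 190 CPM in KO and 220 and 222 CPM in WT. KO replicate 2 was the low library and KO replicate 1 lay above both WT mice, so the groups overlap, and the log2 fold change was -0.10 (SE 0.13, edgeR adjusted p = 0.783).

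Of the other direct targets, Ccng1 was alike in both KO mice, while Phlda3 and Sesn2 split by library. Ccng1 encodes cyclin G1, which recruits a phosphatase to Mdm2, and it had 149 and 153 CPM in KO and 133 and 145 CPM in WT. The groups did not overlap, but the log2 fold change of 0.12 (SE 0.12), close to its error in size, did not pass the test (edgeR adjusted p = 0.704). Phlda3 encodes a small protein that competes with the kinase Akt for membrane lipids. It had 110 and 250 reads in KO and 173 and 206 in WT, which are 3.98 and 8.08 CPM in KO and 4.44 and 4.04 CPM in WT. Only KO replicate 2 stood out, at 1.90 times the WT mean, and KO replicate 1 was below both WT mice. The log2 fold change of Phlda3 was 0.51 (SE 0.34, edgeR adjusted p = 0.597). Its value without KO replicate 2 was -0.09. Sesn2 encodes sestrin 2, a stress protein that restrains the growth kinase complex mTORC1. It had 4.2003 and 6.40 CPM in KO and 4.93 and 5.78 CPM in WT, so that the KO mice stood on either side of both WT mice (log2 fold change -0.02, SE 0.27, edgeR adjusted p = 0.986).

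**Figure D2:**
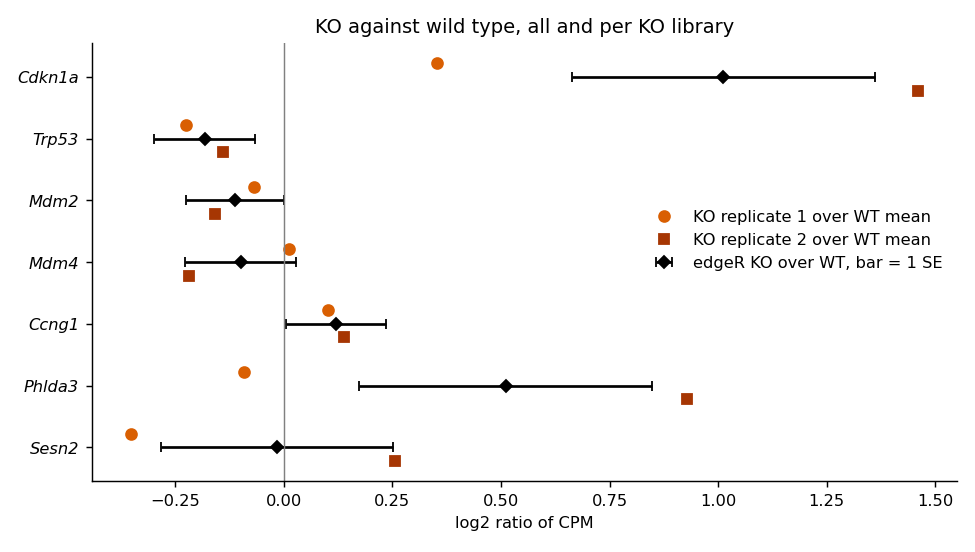
The horizontal axis gives log2 ratios of CPM. Circles and squares set KO replicates 1 and 2 against the WT mean, and diamonds with bars are the edgeR log2 fold change of KO over WT and 1 SE. Cdkn1a is positive in both KO libraries (0.35 and 1.46), Trp53 negative in both (-0.22 and -0.14), and Phlda3 and Sesn2 change sign between them.

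Among the 7 genes, the low ones also differed more between the KO libraries than the abundant ones. Other genes of like level were not compared in this way. KO replicate 2 over KO replicate 1 was 2.15 for Cdkn1a, 2.03 for Phlda3 and 1.52 for Sesn2. For Trp53, Mdm2, Mdm4 and Ccng1 that ratio lay between 0.852 and 1.06. Across the alternatives of the gene test, the log2 fold change of Cdkn1a ran from 0.35 to 1.45 and that of Trp53 from -0.23 to -0.12.

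Levels can be compared between genes only per length, here as RPKM (TMM-scaled CPM per kilobase of transcript). Trp53 was the highest of the 7, with 73.4 and 77.7 RPKM in KO and 88.9 and 82.4 RPKM in WT, a mean above 93.6% of the genes tested. Mdm4 followed with 63.9 and 54.5 RPKM in KO and 63.1 and 63.7 RPKM in WT. Mdm2 had 53.1 and 49.8 RPKM in KO and 55.8 and 55.4 RPKM in WT, a range that overlaps that of Mdm4. Ccng1 lay below these, with 42.7 and 43.8 RPKM in KO and 38.2 and 41.4 RPKM in WT. A gap of about an order of magnitude led to Cdkn1a, with 3.70 and 7.97 RPKM in KO and 2.96 and 2.83 RPKM in WT. Phlda3 overlapped it, with 2.72 and 5.50 RPKM in KO and 3.03 and 2.75 RPKM in WT. Sesn2 was lowest, with 1.58 and 2.41 RPKM in KO and 1.86 and 2.18 RPKM in WT, a mean above 26.96% of genes. The mean of Cdkn1a over the 4 libraries was above 35.6% of the genes tested.

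The splicing of these genes was read from 8084 junction reads. By gene, the summed reads were 2391 for Trp53, 2261 for Mdm2, 2232 for Mdm4, 1014 for Ccng1, 110 for Sesn2, 60 for Cdkn1a and 16 for Phlda3. The test of junction usage asks whether a junction's share within its gene differs between KO and WT. It covered 45 junctions of 6 genes, and left out Phlda3, whose single junction has nothing to be set against. edgeR's diffSpliceDGE called 0 of the 45, against 0.00420% of all 95139 junctions tested. At an unadjusted p under 0.05, a mark reached by 2.55% of all junctions, there was 1 of the 45. limma's diffSplice on voom values also called 0.

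That junction joins exons 4 and 5 of Trp53, early in the part that encodes the DNA-binding domain. It had 43 and 37 reads in KO and 146 and 96 in WT. These are 13.0 and 10.5 junction CPM in KO and 30.7 and 15.6 in WT, so both KO libraries were lower and WT replicate 1 was high. The change in log2 relative usage was -0.92 (unadjusted p = 0.029, edgeR adjusted p = 1.000). The preceding junction of Trp53, from exon 3 to exon 4, had 23.3 and 30.4 junction CPM in KO and 15.3 and 31.6 in WT, where WT replicate 1 was the low one.

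**Figure D3:**
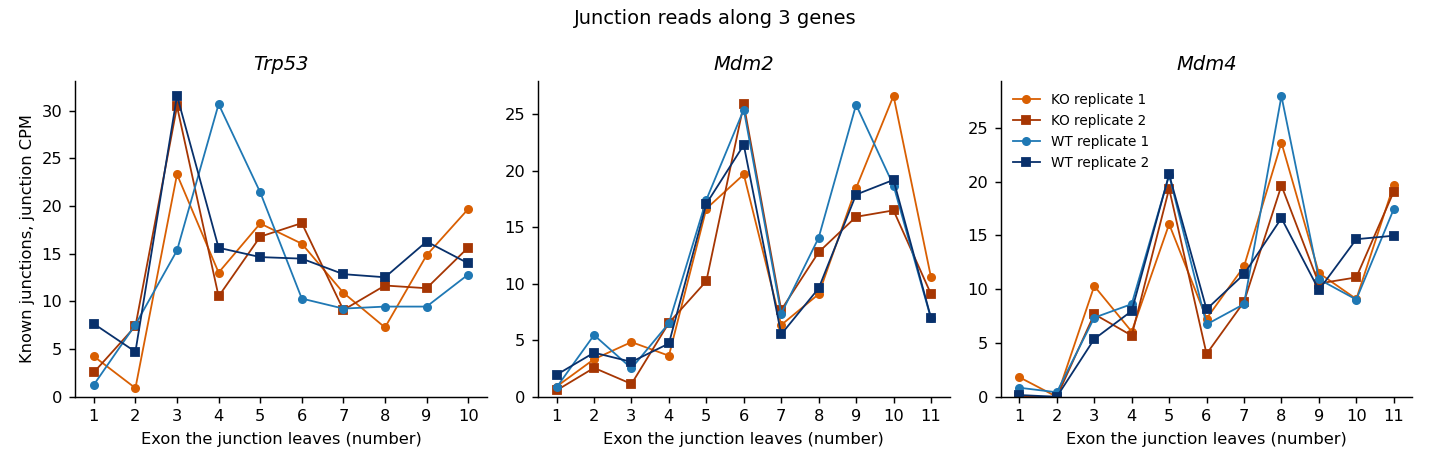
Reads of known junctions in junction CPM, by the number of the exon that each junction leaves, for Trp53, Mdm2 and Mdm4. Both junctions out of Trp53 exon 10 are summed. Putative junctions are not drawn, among them the skips of Mdm2 exon 3 and of Mdm4 exons 2 and 7. The points at Mdm2 exon 2 and at Mdm4 exons 1 and 6 thus lack these skipping reads. Lines are single libraries, and the profiles of the groups cross along each gene, with WT replicate 1 apart from the other 3 at Trp53 exon 4, at 30.7.

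Trp53 has a pair of known acceptor sites in its last exon, 96 bases apart. Use of the upstream site gives a p53 of 381 codons in place of 390, with another carboxyl end, a form long known in mouse. The coding ends are shown because they are what this choice swaps: capitals mark the coding part of exon 11, after 20 bases of exon 10 and before the stop codon. They are read from GENCODE M21 on GRCm38, plus strand, at chr11:69591254-69591308 and chr11:69591350-69591431.
Trp53 exon 11, upstream site: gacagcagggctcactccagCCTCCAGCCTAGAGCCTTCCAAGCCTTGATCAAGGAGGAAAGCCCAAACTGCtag
Trp53 exon 11, downstream site: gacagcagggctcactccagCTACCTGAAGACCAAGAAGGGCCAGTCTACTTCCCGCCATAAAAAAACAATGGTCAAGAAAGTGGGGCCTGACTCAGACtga

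The upstream site took 15 of 65 reads out of exon 10 in KO replicate 1 (23.1%, exact 95% interval 13.5 to 35.2%) and 18 of 55 in KO replicate 2 (32.7%, 20.7 to 46.7%). In WT it took 11 of 61 reads in replicate 1 (18.0%, 9.36 to 29.98%) and 28 of 86 in replicate 2 (32.6%, 22.8 to 43.5%). The means were 27.9 ± 6.82% in KO and 25.3 ± 10.3% in WT (SD, n = 2 each), and the groups interleave. Over all 4 libraries, 72 of the 267 reads, or 26.97%, led to the alternative tail.

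Exon 7 of Mdm4, 68 bases in the coding sequence, is the exon whose loss gives the short form Mdm4-S. It is shown in capitals, between 20 bases of exons 6 and 8, from GENCODE M21 on GRCm38 at chr1:133004654-133004721 on the minus strand. The second line joins exon 6 to exon 8, from the last 20 bases of exon 6 to the first stop codon in the shifted frame, in capitals.
Mdm4 exon 7: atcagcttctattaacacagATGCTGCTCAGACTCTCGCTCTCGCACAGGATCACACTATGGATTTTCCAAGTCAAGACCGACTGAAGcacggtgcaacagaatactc
Mdm4 exon 6 to exon 8 join: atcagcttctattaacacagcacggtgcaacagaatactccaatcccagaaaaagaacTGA

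Without exon 7 the reading frame stops after 127 codons, the last 12 of them in the shifted frame, in place of 489. The skipping junction, which the authors list as putative, took 7 of 31 reads out of exon 6 in KO replicate 1 (22.6%, exact 95% interval 9.59 to 41.1%) and 15 of 29 in KO replicate 2 (51.7%, 32.5 to 70.6%). In WT it took 9 of 41 in replicate 1 (21.95%, 10.6 to 37.6%) and 23 of 73 in replicate 2 (31.5%, 21.1 to 43.4%). KO replicate 2 was the highest library and KO replicate 1 lay between the WT mice, so the groups overlap at means of 37.2 ± 20.6% in KO and 26.7 ± 6.76% in WT (SD, n = 2 each). From both flanking junctions, inclusion was 82.1% and 60% in KO and 80.2% and 72.3% in WT, a difference that the edgeR exon test did not call (adjusted p = 0.983).

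Exon 3 of Mdm2 carries the start codon. Its coding part is shown, with the start codon in capitals, from GENCODE M21 on GRCm38 at chr10:117709700-117709780 on the minus strand.
Mdm2 exon 3, coding part: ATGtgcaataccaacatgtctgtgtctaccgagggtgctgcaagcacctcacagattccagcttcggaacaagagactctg

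An mRNA without this exon has its next start codon in the same frame at codon 50 of 489. Such a shorter protein, which lacks the start of the p53-binding region, is known from mouse cells. The junction that skips exon 3, listed as putative, was the main route out of exon 2 in all 4 libraries. It took 26 of 37 reads in KO replicate 1 (70.3%, exact 95% interval 53.02 to 84.1%) and 31 of 40 in KO replicate 2 (77.5%, 61.5 to 89.2%). In WT it took 39 of 65 in replicate 1 (60%, 47.1 to 72.0%) and 53 of 77 in replicate 2 (68.8%, 57.3 to 78.9%). Both KO shares were above both WT shares, at 73.9 ± 5.11% in KO and 64.4 ± 6.24% in WT (SD, n = 2 each), with intervals that overlap. Inclusion from both flanking junctions, 34.2% and 17.3% in KO and 32.8% and 28.9% in WT, overlapped between groups and was not called (edgeR adjusted p = 0.977). Mdm2 also has a p53-responsive promoter in intron 1, from which transcripts start without exon 1. Reads joining exon 1 to exon 2 numbered 3 and 2 in KO and 4 and 12 in WT, against 37 and 40 reads leaving exon 2 in KO and 65 and 77 in WT. Inner junctions of Mdm2 also differed in reads, with 95 from exon 4 to exon 5 and 414 from exon 6 to exon 7 over all libraries. The share of transcripts from each promoter was not tested.

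**Figure D4:**
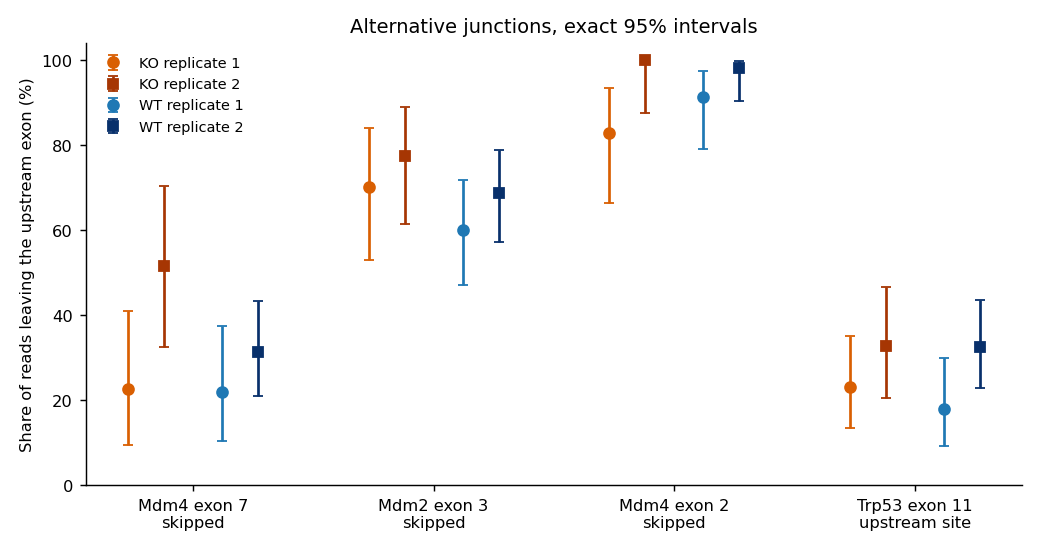
Share of the reads leaving the upstream exon that take the junction named below, in percent, with exact 95% binomial intervals for counting error, KO left of WT. The intervals of all 4 libraries overlap for each of the 4 events, and skipping of Mdm4 exon 7 is highest in KO replicate 2, at 51.7%.

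The remaining alternative junctions of Mdm2 and Mdm4 were rare or nearly complete. Exon 2 of Mdm4, in the part before the start codon, was skipped by 29 of 35 and 28 of 28 reads out of exon 1 in KO and by 42 of 46 and 55 of 56 in WT. Exon 9 of Mdm4 was skipped by 3 of 81 and 2 of 71 reads in KO and by 0 of 133 and 6 of 108 in WT. Exon 8 of Mdm2 was skipped by 0 of 21 and 0 of 27 reads out of exon 7 in KO and by 1 of 36 and 5 of 39 in WT. Exons 7 and 8 of Mdm2 were skipped together by 0 of 65 and 0 of 91 reads out of exon 6 in KO and by 4 of 125 and 4 of 141 in WT. A count of 0 in both KO mice allows up to 6.25% for the first of these Mdm2 skips and up to 1.92% for the second, against 8% and 3.01% over both WT mice. The exact 95% intervals over both mice were 0 to 7.40% in KO and 2.99 to 16.6% in WT for the first, and 0 to 2.34% in KO and 1.31 to 5.84% in WT for the second. These overlap, and both skip junctions had under 10 reads in all and so were not in the junction test. In Ccng1, 4 reads in WT replicate 2 joined exon 3 to exon 5. In WT replicate 1, 1 read joined exon 3 to exon 6. The KO libraries had 0 reads that skip exon 4. Of reads out of exon 3 into exon 4 or 5, those into exon 5 numbered 0 of 13 and 0 of 13 in KO. In WT they numbered 0 of 28 and 4 of 20. The count of 0 in both KO mice allows up to 11.5%, above the 8.33% over both WT mice. Among exons of the 7 genes with both inclusion junctions known, the exon test covered Mdm2 exons 3 and 8 and Mdm4 exons 2, 7 and 9. It called 0 of the 5, and 0 of 3127 exons in all by edgeR, of which 5.63% had an unadjusted p under 0.05. The adjusted p of Mdm2 exon 8 was 0.733.

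The wider pathway was read from 108 genes in 8 roles, of which 107 were in the tables and 102 were tested. edgeR called 0 of the 102, with 3 higher in KO at an unadjusted p under 0.05, against 6.29% of all genes, and 5 lower, against 3.61%. In KO 53 of the 102, or 52.0%, had a positive fold change, against 51.1% of all genes tested. Their median log2 fold change was 0.01, as was that of all genes. By role the medians ran from -0.11 for inhibitors of p53, of which 4 of 12 were positive, to 0.11 for apoptosis targets, of which 9 of 17 were. Among kinases and activators of p53, 12 of 15 were positive, with a median of 0.06.

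The genes at the ends of each role give the range. Ddit4, a stress-induced inhibitor of mTORC1 signalling, was lowest, with 106 and 70.3 CPM in KO and 194 and 207 CPM in WT. Both KO mice were well below both WT mice, with a log2 fold change of -1.18 (SE 0.19, edgeR adjusted p = 0.249). Among the alternatives that called it were DESeq2, the edgeR fit with no filter (0.314% of all genes called) and the fit without KO replicate 1. Cdkn1c encodes p57, the relative of p21, and it stood lower in both KO mice, with 4.92 and 4.30 CPM in KO and 8.35 and 10.04 CPM in WT (log2 fold change -0.997, SE 0.21, edgeR adjusted p = 0.377). DESeq2 called Cdkn1c as well. Cdk6, a kinase of the G1 phase, had 87.0 and 146 CPM in KO and 72.1 and 81.6 CPM in WT (log2 fold change 0.60).

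Among apoptosis targets, the death receptor gene Tnfrsf10b had 6.59 and 10.4 CPM in KO and 5.26 and 4.88 CPM in WT (log2 fold change 0.75, SE 0.26, edgeR adjusted p = 0.470). Trp53inp1 was the lowest of its role, at -0.29. The deacetylase gene Sirt1, an inhibitor of p53, had 96.8 and 68.5 CPM in KO and 127 and 129 CPM in WT (log2 fold change -0.63, SE 0.17, edgeR adjusted p = 0.414), while Ube4b, a ubiquitin ligase gene, stood at 0.22. Of the arrest targets, Btg2 had 969 and 735 CPM in KO and 1114 and 1101 CPM in WT (log2 fold change -0.38). Plk2 stood at 0.43 (SE 0.45), from low and overlapping levels of 1.30 and 3.23 CPM in KO and 1.41 and 1.96 CPM in WT. Fancc and Polk, genes of DNA repair, had log2 fold changes of -0.43 and 0.29. Pml, whose product organises nuclear bodies, had 0.43 (SE 0.14). The cytokine gene Lif had -0.48 (SE 0.44), from low and overlapping levels of 0.579 and 1.00 CPM in KO and 0.899 and 1.31 CPM in WT. Tsc2 of the mTORC1 brake had 0.24. The activators ran from -0.23 for Rpl5, a ribosomal protein that binds Mdm2, to 1.02 for Cdkn2a, which is under 1 CPM in every library. Without KO replicate 1, edgeR called 6 of the wider list, namely Sirt1, Btg2, Tnfrsf10b, Sesn3, Ddit4 and Cdk6, in a fit that called 2.96% of all genes.

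**Figure D5:**
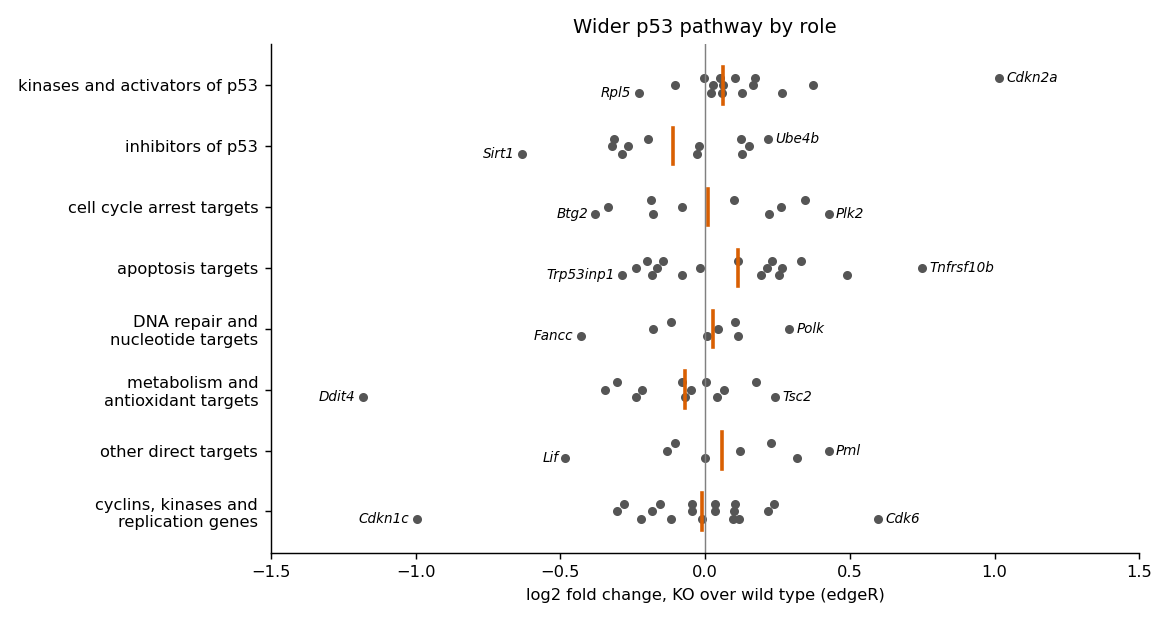
The edgeR log2 fold change of KO over WT for the 102 tested genes of the wider list, 1 point per gene, by role, with orange bars at the medians and names at the lowest and highest gene of each role. Points lie on both sides of 0 in every role, and Ddit4 is lowest at -1.18; no point passed the test.

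The genes whose pattern over the 4 libraries lay nearest to that of Cdkn1a were Itgb4, Eya1, Slc5a9, Kcnj10 and Higd2a. Nearness was the Euclidean distance between log2 CPM values centred over the libraries, among 11973 genes whose mean over the libraries was at least 1 CPM, and it ran from 0.12 for Itgb4 to 0.20 for Higd2a. Itgb4, the integrin beta chain of epithelial hemidesmosomes, had 4.67 and 10.4 CPM in KO and 4.16 and 3.88 CPM in WT. Eya1, a transcription regulator needed in development of the thymic epithelium, had 1.19 and 2.91 CPM in KO and 0.976 and 0.921 CPM in WT. Slc5a9, of the sodium and glucose cotransporter family, had 28.6 and 57.5 CPM in KO and 22.5 and 19.1 CPM in WT. Kcnj10, a potassium channel gene, had 2.17 and 4.13 CPM in KO and 1.52 and 1.41 CPM in WT. Higd2a, whose product serves in the mitochondrial respiratory chain, had 13.0 and 26.4 CPM in KO and 10.9 and 11.4 CPM in WT. In all 5 genes, as in Cdkn1a, KO replicate 2 was highest and KO replicate 1 next, an order that follows from how they were chosen. Of the other 6 p53 pathway genes, Phlda3 was nearest, at 0.49 and rank 144.

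Thymic stroma and epithelium were followed by 16 marker genes, all detected. Their summed level was 261 and 336 CPM in KO and 264 and 281 CPM in WT. Most of each sum came from Pecam1 alone, with 189 and 172 CPM in KO and 171 and 177 CPM in WT. In KO replicate 2, the library with the most Cdkn1a, 15 of the 16 were above the WT mean, all but Pecam1. The median log2 ratio of these markers to the WT mean was -0.28 in KO replicate 1 and 0.55 in KO replicate 2, where Cdkn1a had 0.35 and 1.46. Erythroid markers, 7 of 10 found in the tables, summed to 460 and 94.1 CPM in KO and to 147 and 129 CPM in WT, highest in KO replicate 1. The 6 B cell markers summed to 46.5 and 41.5 CPM in KO and to 41.9 and 41.8 CPM in WT. Myeloid markers, 10 of 11 found, summed to 236 and 233 CPM in KO and to 225 and 203 CPM in WT. The part of these cells in the level of Cdkn1a was not tested.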

How the data were processed

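Thymocyte RNA of 2 KO and 2 WT mice was sequenced after ribosomal RNA depletion, with fragments of 150 to 300 bp and 12 PCR cycles, per the labels' protocols. The authors deposited raw read counts per RefSeq transcript, each row's reads-to-length ratio and RPKM values, with alignments of mapping quality at least 10 per the file headers, and raw counts per exon-exon junction. The deposited ratio and RPKM columns entered no test. The build is mm9 per the submitters' processing notes, the aligner and the use of strand being not given in the sources used here, so antisense reads cannot be told apart. Gene reads numbered 27548708 and 28677506 in KO and 41775795 and 51544714 in WT, and junction reads 3302915 and 3515308 in KO and 4759678 and 6146421 in WT.

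The transcript row with the most reads was kept per symbol, since rows of a gene share reads. The gene test was edgeR 4.0.16 under R 4.3.3 (robust quasi-likelihood, TMM, filterByExpr by group, Benjamini-Hochberg, threshold 0.05). diffSpliceDGE took junctions that reached 10 summed reads and had another such junction in their gene. The exon test, an edgeR model with library terms, took exons that reached 10 reads per library and 5 summed reads each for inclusion and skipping. DESeq2 1.42.0 and limma 3.58.1 were alternatives. The tests were run on simulated counts with planted changes, which did not model the differences seen between the KO mice. Exact Clopper-Pearson intervals are at 95%, a count of 0 allows 3, and both cover counting error only. Replicates are mice, per the labels. Exons are numbered along known junctions, matched to GENCODE M21 by exon and intron lengths. Sequence searches and figures used Python 3.11.15.

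The genes, lists and tests were chosen with earlier results of these data known. Named genes are the 7 members, Hnrnpl, the highest and lowest tested gene of each role of the wider list with every gene called, and the 5 genes nearest to Cdkn1a among those with a mean of at least 1 CPM over the libraries. Of the wider list, Trp53aip1 was not found and Reprimo, Cpt1c, Eda2r, Trp73 and Tgfa had too few reads. Sesn3, called in 1 alternative, falls under the rule only there. The alternatives were other scalings, tools, filters and transcript choices, a replicate block and each library left out.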

Additional observations from a re-analysis of the deposited data

How the results depend on the processing

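Trp53, Mdm2 and Ccng1 kept the direction of their log2 fold change and stayed uncalled in all 13 alternatives. Cdkn1a stayed positive in all 13, and passed only without KO replicate 1. Leaving out each library in turn gave 0.35 to 1.45 for Cdkn1a, -0.23 to 0.012 for Mdm4, where the value without KO replicate 2 (0.012) reversed the sign, and -0.09 to 0.92 for Phlda3, reversed without KO replicate 2 (-0.089). It gave -0.35 to 0.25 for Sesn2, reversed without KO replicate 1 (0.25) and without WT replicate 2 (0.11). Upper-quartile scaling, which moved the median of all genes to 0.06, put Sesn2 at 0.044. The number of genes called, 1 at first, was 0 by limma-voom, 0 under upper-quartile scaling, 0 without robust moderation, 0 with rows summed, 3 without small RNA genes, 62 with no filter, 103 by DESeq2 and 2 to 427 with a library left out. Replicate numbers only name the mice; with the replicate number as a block edgeR called 121 genes, among them Ddit4 and none of the 7, and 10 junctions, and the deviations of same-numbered mice correlated at 0.26 across genes. Of junctions, 4 were called at first, 2 among known ones, 1 by limma-voom and 3 to 12 with a library left out, and in none of the 8 alternatives was one in the 7 genes. In points of inclusion, KO minus WT, Mdm2 exon 3 reversed to 3.37 without KO replicate 2 (range -13.5 to 3.37), Mdm4 exon 7 to 5.80 without KO replicate 2 (-16.3 to 5.80), Mdm4 exon 9 to 2.58 without WT replicate 1 (-4.28 to 2.58), and Mdm4 exon 2 to -3.78 and -1.98 without KO replicate 1 and WT replicate 2 (-3.78 to 5.59) and to -2.27 by the downstream junction alone. The cause of these shifts was not tested. With 2 mice a group, and 29 to 86 reads per library behind the shares of Trp53 exon 11, Mdm4 exon 7 and Mdm2 exon 3, small differences could not be detected. The main edgeR gene test also left the lower Hnrnpl level of the KO mice uncalled.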
